A study of Mus musculus with 14 samples.

Results

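The nuclear-encoded genes of the mitochondrial respiratory chain were examined for binding of PRDM16, a zinc-finger transcription factor, in mouse ventricles of stage E13.5. Members were the nuclear protein-coding genes of GRCm38 whose symbol begins with Nduf, Uqcr, Cox4 to Cox8 or Atp5, or is Sdha, Sdhb, Sdhc or Sdhd. They came to 96 of 21883 genes. A peak belonged to a member when the member was the protein-coding gene nearest to its summit, by distance to the gene body. This gave 23 of 17587 wild-type (WT) peaks, assigned to 15 of the 96 genes. None of the 23 summits was equally near to a second gene.

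The respiratory chain passes electrons from NADH and succinate to oxygen through complex I (Nduf genes), complex II (Sdh), complex III (Uqcr) and complex IV, cytochrome c oxidase (Cox genes), and ATP synthase, complex V (Atp5), uses the resulting proton gradient to make ATP. Heart muscle depends on it, and several subunits of complex IV exist as a heart and skeletal muscle form beside a form found in most tissues. PRDM16 is best known from brown fat, where it acts with coactivators of mitochondrial genes.

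PRDM16-bound DNA was measured by chromatin immunoprecipitation and sequencing (ChIP-seq) in C57BL/6 mice. Ventricles with the atria removed gave 2 WT libraries and 1 library of a Prdm16 conditional knockout (Prdm16cKO), each from 3 hearts pooled. Sources used here do not name the Cre driver of the knockout. The left ventricle (LV) and right ventricle (RV) of WT embryos gave 2 libraries each, from pools of 10 to 12 ventricles, and each of these 7 ChIP libraries has an input library of the same kind without antibody. Whole ventricles hold several cell types, so that fewer bound cells and less binding per cell cannot be told apart, and expression of the marker genes of any cell type was not measured.

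The wild-type list gives 1 fold enrichment (ChIP over background, the authors' value) per peak and no value per library. For LV and RV, whole reads per library were worked out from the deposited table. The libraries are called A and B, since the table carries no replicate numbers. They held 330443 and 184244 reads within WT peaks in LV, and 281797 and 267808 in RV, with a median of 6 to 10 reads per peak, which limits what can be seen at a single peak.

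Among the WT peaks at respiratory chain genes, 9 had their summit within 1000 bp of the start of the gene, and the promoter sequences of 4 of these are shown because they hold matches to the motifs searched. Each is the stretch of the 250 bases before the start that lies inside the peak, from RefSeq (GRCm38.p6), written 5′ to 3′ on the strand of the gene. Cox6a1 is read from chr5:115349011-115349208 on the minus strand, Cox7a1 from chr7:30183925-30184090 on the plus strand, Atp5g3 from chr2:73911372-73911567 on the minus strand, and Ndufa12 from chr10:94198792-94199034 on the plus strand. Capitals mark motif matches on either strand.
Cox6a1: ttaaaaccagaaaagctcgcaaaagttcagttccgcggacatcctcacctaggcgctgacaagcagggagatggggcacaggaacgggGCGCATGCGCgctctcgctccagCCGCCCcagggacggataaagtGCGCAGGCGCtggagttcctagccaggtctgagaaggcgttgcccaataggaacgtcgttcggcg
Cox7a1: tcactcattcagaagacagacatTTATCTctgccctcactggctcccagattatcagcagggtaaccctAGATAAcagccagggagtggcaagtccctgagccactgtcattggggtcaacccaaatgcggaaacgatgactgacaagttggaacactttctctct
Atp5g3: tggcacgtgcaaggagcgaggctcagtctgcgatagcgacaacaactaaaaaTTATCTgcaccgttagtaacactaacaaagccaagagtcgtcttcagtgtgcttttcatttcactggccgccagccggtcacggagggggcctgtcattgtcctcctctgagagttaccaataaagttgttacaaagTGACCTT
Ndufa12: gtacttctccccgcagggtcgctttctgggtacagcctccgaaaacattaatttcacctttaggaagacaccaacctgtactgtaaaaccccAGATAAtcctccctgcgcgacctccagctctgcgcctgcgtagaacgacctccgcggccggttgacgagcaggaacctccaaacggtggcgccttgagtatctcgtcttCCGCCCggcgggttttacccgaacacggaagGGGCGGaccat

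A smaller share of respiratory chain genes than of protein-coding genes as a whole had a PRDM16 peak. A WT peak was assigned to 15 of 96 (15.6%, 95% Wilson interval 9.70 to 24.2%), against 32.9% of all nuclear protein-coding genes (7202 of 21883). Genes were counted by symbol, so that Ndufa4, a subunit of complex IV, is among the complex I genes with a peak. Complex I, which takes electrons from NADH, had a peak in 8 of 41 genes (19.5%), and the assembly factors of that complex (Ndufaf) in 1 of 8, Ndufaf6. Complex IV had a peak in 3 of 18 genes (16.7%) and complex V in 3 of 17 (17.6%). All 4 genes of complex II, the succinate dehydrogenase, and all 8 of complex III, the cytochrome c reductase, were without one. For groups this small the counts allow wide shares: the interval reached 49.0% for complex II and 32.4% for complex III. Intervals cover counting error only, and the peak lists allow no test over replicates.

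**Figure D1:**
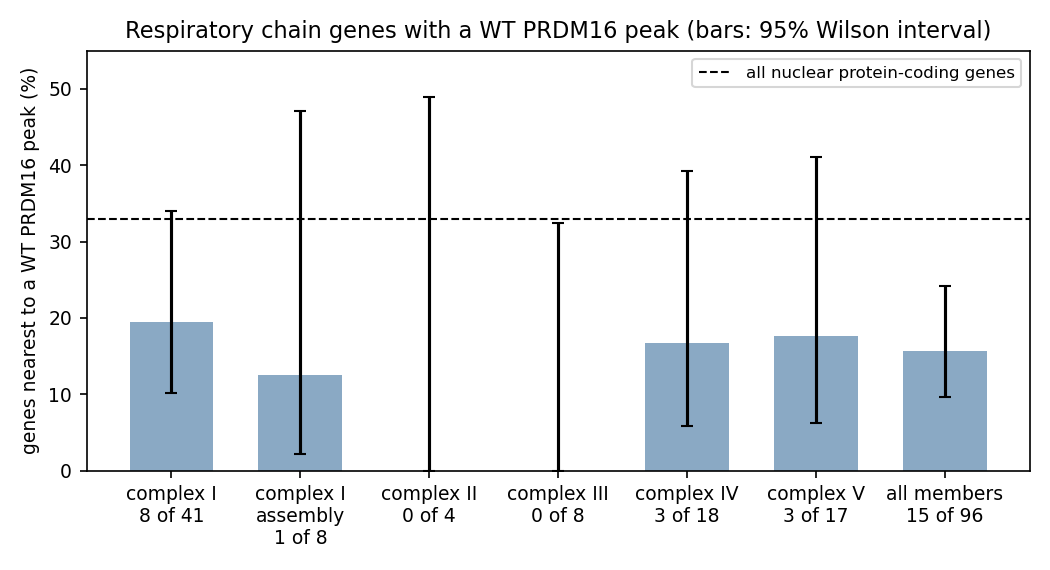
Share of genes nearest to at least 1 WT PRDM16 peak (percent, bars) with 95% Wilson intervals, by complex and for all 96 members, and the share over all nuclear protein-coding genes (dashed line, 32.9%). Complexes II and III have no gene with a peak, and the bar for all members stands at 15.6%.

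Respiratory chain genes are short and lie close to other genes, and these features move with the share of genes with a peak. Their median body was 7228 bp against 17170 bp in all genes, and the median stretch of sequence to which a member was nearest was 16958 bp against 45662 bp. When all genes were divided at the median of that stretch, 77 members fell among those with less sequence. Of these 77, 7 had a peak (9.09%), against 17.3% of all genes there. Among genes with more sequence, 8 of 19 members had one (42.1%), against 48.5%. The part of gene spacing in the lower share was not tested further. Counting every gene within 50000 bp of a summit, rather than the nearest alone, gave 52 of 96 members (54.2%) against 56.0% of all genes.

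Among the 81 members without an assigned peak the nearest summit of any WT peak was a median of 56742 bp away. For 3 of them it lay within 1000 bp and had been assigned to a neighbour. These were Ndufa1 (90 bp, peak assigned to Rnf113a1, fold enrichment 3.82), Ndufb9 (479 bp, Tatdn1, 3.51) and Uqcr10 (241 bp, Zmat5, 4.69), accessory subunits of complexes I and III. With these, 14 of 96 members (14.6%) had a summit within 1000 bp of the gene body, against 26.5% of all genes.

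The strongest of the 23 peaks had Ndufs6, an accessory subunit of complex I, as its nearest gene and ranked 3 among all 17587 WT peaks. It lay on chromosome 13 at 73298462 to 73299864, with a fold enrichment of 28.7 and a width of 1403 bp. Its summit was 20947 bp beyond the 3′ end of Ndufs6 (chromosome 13, 73319876 to 73328482, minus strand). The next gene, 29307 bp away on the other side, was Irx4, a homeobox factor of ventricular muscle, which is on the plus strand, so that the summit lay past the 3′ ends of both genes. Irx4 was the nearest gene of 11 WT peaks (highest fold 7.59), Ndufs6 of 2, and Mrpl36, a mitochondrial ribosomal protein gene next to Ndufs6, of 4. The second Ndufs6 peak, 5947 bp from the first, had a fold enrichment of 3.96. Nearness alone links the strong peak to Ndufs6, and which gene it acts on was not measured.

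**Figure D2:**
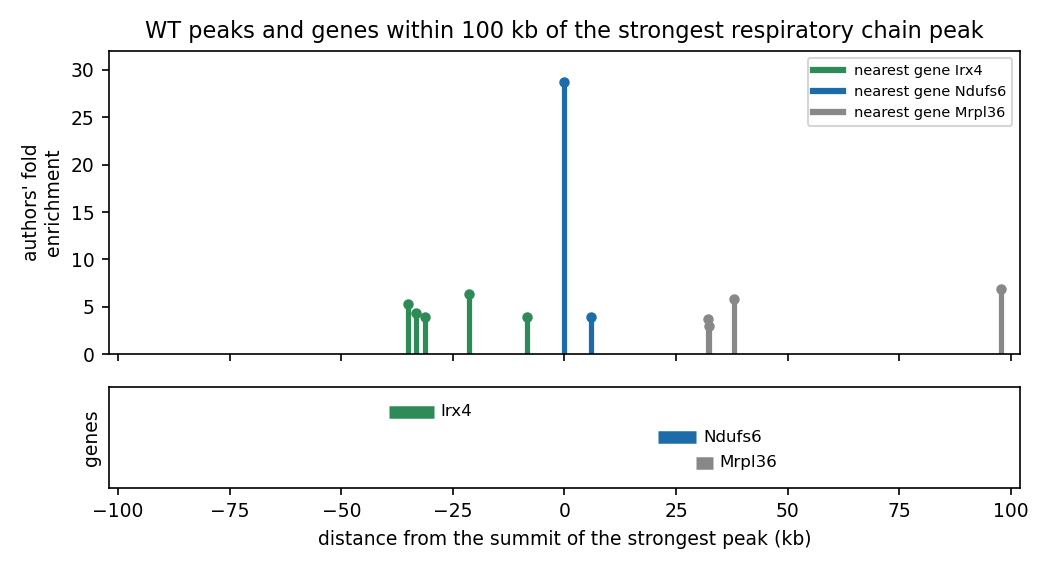
WT peaks (vertical lines at summits, height the authors' fold enrichment) and genes (bars) within 100 kb of the strongest respiratory chain peak, by distance from its summit in kb. The peak of fold 28.7 stands between Irx4, 29307 bp to the left, and Ndufs6, 20947 bp to the right.

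Cox6a2, the heart and skeletal muscle form of complex IV subunit 6a, had the second strongest peak. It lay on chromosome 7 at 128205803 to 128206597, had a fold enrichment of 12.7 (rank 218 of all WT peaks) and covered one end of this 932 bp gene (128205435 to 128206366), with its summit 66 bp outside. Cox6a1, the form of the same subunit found in most tissues, had a peak of 5.80 on chromosome 5 at 115349011 to 115349467, 216 bp before its start. Cox7a1, the muscle form of subunit 7a, had a weaker peak of 3.84 on chromosome 7 at 30183925 to 30184090, 189 bp before its start. These 3 genes were the only ones to which a peak was assigned among the 18 counted with complex IV by their Cox symbol.

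Other members of the tissue-specific pairs had no assigned peak. For Cox7a2, the widespread form of subunit 7a, the nearest summit was 22130 bp away, and for Cox7a2l, which takes part in supercomplexes, 181264 bp. Cox8b, the muscle form of subunit 8, was 221060 bp from a summit, Cox8a, its widespread form, 77754 bp and Cox8c 21424 bp. Cox4i1, the main form of subunit 4, was 104288 bp from a summit and Cox4i2 66700 bp. Cox6b1 was 6802 bp and Cox6b2 200866 bp away. Muscle forms were thus found both with a strong peak (Cox6a2) and with no peak nearby (Cox8b).

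Complex I genes held most of the other peaks. Ndufa10, an accessory subunit, had 3: the strongest, of fold 6.28, at chromosome 1, 92337400 to 92337904, was 101921 bp beyond the 3′ end, one of 4.55 (92448242 to 92448564) was inside the gene and one of 3.43 was 1471 bp beyond it. Ndufs4, an accessory subunit whose loss causes mitochondrial disease, had a peak of 5.61 inside the gene on chromosome 13 at 114344140 to 114344566, 43662 bp past its start, and one of 2.99 at its start. Ndufb4, of the membrane arm, had peaks of 4.84 (chromosome 16, 37691169 to 37691428) and 3.57 at 36933 and 31043 bp before its start. Ndufa4, which is counted here with complex I by its symbol but is a subunit of complex IV, had a peak of 4.39 as far as 593603 bp from the gene (chromosome 6, 11306613 to 11306925) and one of 3.93 in its promoter (11907290 to 11907603), 67 bp before the start and 208 bp from Phf14, which is transcribed the other way. Its hypoxia-induced relative Ndufa4l2 had none, with the nearest summit 150947 bp away. The rest were single peaks of Ndufa6 (3.16, 197 bp before the start), Ndufa11 (3.12, 5071 bp outside the gene), Ndufa12 (2.72, 79 bp before the start) and the assembly factor gene Ndufaf6 (2.59, 58 bp outside).

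In complex V, Atp5o, whose product joins the stalk to the catalytic head, had a pair of peaks at 49832 and 47248 bp before its start (chromosome 16, 91981381 to 91981577 and 91978757 to 91979111), with fold enrichments of 4.14 and 4.05. Atp5g3, one of 3 genes for the ring subunit c, had a peak of 3.83 at 289571 bp and one of 2.58 at its promoter, with the summit at -138 bp from a start. The other genes for subunit c, Atp5g1 and Atp5g2, had none, with summits 84098 and 360225 bp away. Atp5h, of the peripheral stalk, had a peak of 2.84 inside the gene.

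The peaks of respiratory chain genes were about as strong as WT peaks in general. Their median fold enrichment was 3.93 (95% interval from ranks 3.16 to 4.55, range 2.58 to 28.7), against 4.0 over all WT peaks, and 5 of 23 (21.7%) reached a fold of 5, against 26.1%. Their median width was 313 bp, against 298 bp. The peaks of Ndufs6 and Cox6a2 stood above the other 21, which ran from 2.58 to 6.28.

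**Figure D3:**
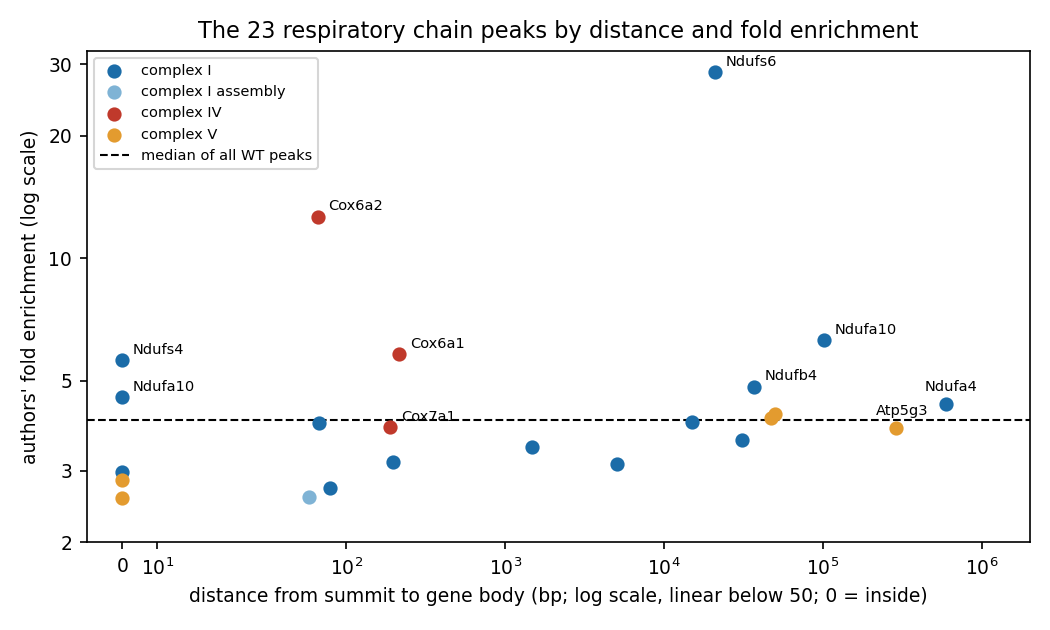
Authors' fold enrichment (log scale) of each of the 23 respiratory chain peaks against the distance from summit to gene body (bp, log scale above 50, 0 for summits inside the gene), coloured by complex, with the median of all WT peaks (dashed, 4.0). Ndufs6 (28.7) and Cox6a2 (12.7) stand above the rest, which reach at most 6.28.

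A larger share of these peaks than of all WT peaks lay at gene starts. The summit was no more than 1000 bp from the start in 9 of 23 peaks (39.1%, 95% Wilson interval 22.2 to 59.2%), against 17.1% of all WT peaks, and these were the peaks of Cox6a2, Cox6a1, Ndufa4, Cox7a1, Ndufa6, Ndufs4, Ndufa12, Ndufaf6 and Atp5g3, 1 in each gene. For Cox6a2 and Ndufaf6, whose strand is not in the tables used, either end of the gene counted. A further 3 summits (13.0%) were deeper inside the gene, against 46.9% of all WT peaks, and 11 (47.8%) were outside, against 36.0%. Of those 11, 9 were over 10000 bp and 3 over 50000 bp from the gene. Peaks at starts had a median fold of 3.16 and the others 4.10, close to the values of all WT peaks (3.56 and 4.10). These are shares of peaks, not of genes. Counted by genes, a smaller share of members than of all genes had a summit at a start (9 of 96, against 2723 of 21883). Members have short bodies (median 7228 bp against 17170 bp), and the part of length in the shares at starts and inside genes was not tested.

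Counted over promoters, the share with a peak was near that of all genes. RefSeq promoters (250 bases before to 50 after a start) were at hand for 78 of the 96 members, 83 promoters in all, and a WT peak overlapped 9 of them (10.8%), against 8.31% of the 21262 promoters of protein-coding genes. These 9 belong to Atp5g3, Cox6a1, Ndufa4, Cox7a1, Ndufa12, Ndufs4 and Ndufa6, and to Uqcr10 and Ndufa1, whose peaks were assigned to Zmat5 and Rnf113a1. The promoter of Cox6a2 was not among those used.

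Promoters were searched on both strands for 8 motifs of factors known at respiratory genes or in heart muscle. The site of NRF1, a regulator of respiratory genes (GCGCA and GCGC with 1 free base between them), was in 20 of 83 member promoters (24.1%), against 6.38% of all promoters. The ETS core of GABP, another such regulator (CCGGAAG), was in 19 (22.9%, against 11.6%), the site of YY1 (AAGAT followed directly by GGCGG) in 6 (7.23%, against 1.21%), and the site of estrogen-related receptors (TCAAGGTCA) in 2 (2.41%, against 0.334%). The shorter receptor site AAGGTCA, which the longer site contains, was in 8 (9.64%, against 4.08%), the Sp1 and KLF box GGGCGG in 36 (43.4%, against 46.2%), the GATA site AGATAA in 6 (7.23%, against 9.65%) and the MEF2 site (CTA and TAG with 4 free bases between them) in 2 (2.41%, against 3.47%). The NRF1, GABP, YY1 and receptor motifs thus made up larger shares of these promoters than of all promoters.

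Within the 9 member promoters that a peak overlapped, NRF1 sites were in 3 and GATA sites in 3. Of the 74 others, 17 held an NRF1 site and 3 a GATA site. The GABP core was in 1 of the 9 and 18 of the 74, and the MEF2 site in 0 and 2. The Sp1 and KLF box was in 4 of the 9 and 32 of the 74, and the YY1 site in 1 and 5. The longer receptor site was in 1 of each set, and the shorter one in 1 and 7. Differences between the 9 and the 74 were not tested. Among all promoters overlapped by a WT peak, 6.28% held the NRF1 site and 7.07% the GATA site. In the stretches printed above, Cox6a1 has 2 NRF1 sites and an Sp1 box. Cox7a1, the muscle form, has 2 GATA sites and no NRF1 site. Atp5g3 has a GATA site and the shorter site of estrogen-related receptors, and Ndufa12 a GATA site and 2 Sp1 boxes. The Atp5g3 promoter is also the 1 of the 9 that holds the longer receptor site, which does not lie whole within the printed stretch. A match of letters is a description of the sequence, not evidence of a bound factor.

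Peaks called in the knockout ventricles were set beside those of the wild type. None of the 23 peaks shared a single base with a knockout peak, which allows a share of up to 13.0% (a limit for counting error only), against 1.12% of all WT peaks, so that a share of 0 in 23 is near the background. The knockout peak closest to any of them was 339394 bp away, on chromosome 7 from the peak of Cox6a2, and none of the 330 knockout peaks had a respiratory chain gene as its nearest gene. With 1 knockout library, no values per library and the depth behind both lists unknown, the loss of peaks was not tested at single genes.

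LV against RV asks whether PRDM16 was bound differently in the ventricles at the same regions. At the strong Ndufs6 peak, library A and library B of LV had 188 and 74 reads, and those of RV 132 and 121, the order in which reads are given from here on. Scaled by the authors' factors these were 140, 108, 114 and 117 normalized reads, so that LV and RV overlapped. The difference of RV over LV was -0.09 on the log2 scale with limma (SE 0.35, 95% interval -0.80 to 0.61, adjusted p = 0.985, n = 2 pools per ventricle).

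Cox6a2 had 50 and 17 reads in LV and 52 and 45 in RV, or 37.2, 24.9, 45.0 and 43.4 normalized reads. Both RV libraries were above both LV libraries, as at 17.6% of all regions. The limma log2 RV over LV was 0.52 (SE 0.32, interval -0.14 to 1.18, adjusted p = 0.828). The limma value was 0.80 without LV library A (unadjusted p = 0.0227, adjusted p = 0.352) and 0.24 without LV library B (unadjusted p = 0.493, adjusted p = 0.974). Cox7a1, also a muscle form, had 5 and 1 reads in LV and 6 and 7 in RV, normalized 3.72, 1.47, 5.20 and 6.75. Here too both RV libraries were higher, but on a few reads (limma log2 1.02, SE 0.66, interval -0.33 to 2.37, adjusted p = 0.835). For Cox7a1 the limma value was 1.49 without LV library A and 0.55 without LV library B. Cox6a1, the widespread form, had 13 and 7 reads in LV and 14 and 10 in RV, and its ventricles overlapped (limma log2 0.11, SE 0.43, interval -0.77 to 0.98). Neither muscle form passed the test.

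The 2 peaks of Ndufa4 had values of opposite sign. In its promoter peak there were 15 and 4 reads in LV and 8 and 0 in RV, normalized 11.2, 5.86, 6.93 and 0. RV library B alone was at 0, and LV and RV overlapped. limma gave a log2 RV over LV of -1.70 (SE 0.75, interval -3.22 to -0.17) with an unadjusted p of 0.0304 and an adjusted p of 0.733. The authors' deposited log2 difference was -1.18, with an unadjusted p of 0.514 in their test. The size of the limma value moved with the pseudocount, to -3.29 at 0.1 and -0.78 at 5. Without RV library B the limma value was -0.20 (unadjusted p = 0.751, adjusted p = 0.992), with the single RV library assumed to vary like LV. Without LV library A it was -1.28 (unadjusted p = 0.149, adjusted p = 0.631, limma). It was -2.11 without LV library B (unadjusted p = 0.0110, adjusted p = 0.602, limma) and -3.19 without RV library A (unadjusted p = 0.00340, adjusted p = 0.981, limma). The peak 593603 bp away had 7 and 5 reads in LV and 12 and 16 in RV (limma log2 0.93, SE 0.46, interval -0.02 to 1.87, adjusted p = 0.786). Both RV libraries were higher there, as at 17.6% of all regions. The Atp5o peak at 49832 bp had 1 read in each LV library and 5 and 3 in RV (limma log2 1.14, SE 0.80, adjusted p = 0.861), while the one beside it at 47248 bp had 11, 7, 8 and 11.

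On the LV side, Ndufa6 was the only member with both LV libraries above both RV libraries, an order that held at 17.9% of all regions. It had 8 and 5 reads in LV and 4 and 5 in RV, normalized 5.95, 7.33, 3.46 and 4.82 (limma log2 -0.58, SE 0.58, interval -1.76 to 0.60, adjusted p = 0.923). The Atp5g3 promoter peak had 7 and 4 reads in LV and 7 and 1 in RV, Atp5h 16, 8, 14 and 6, and Ndufa11 6, 6, 7 and 3. In each of these 3, RV library B was the lowest after scaling and the ventricles overlapped. Their limma log2 RV over LV was -0.81 (SE 0.69), -0.44 (SE 0.45) and -0.48 (SE 0.60), with limma adjusted p of 0.893, 0.923 and 0.946. The peak of Ndufs4 inside the gene had 6 and 6 reads in LV and 9 and 9 in RV, and overlapped after scaling (limma log2 0.33, SE 0.51, interval -0.71 to 1.38, adjusted p = 0.959).

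At the rest of the 12 member peaks of highest fold enrichment no difference between the ventricles was detected. The distant Ndufa10 peak had 21 and 15 reads in LV and 21 and 17 in RV, and the one inside the gene 6, 7, 6 and 6. The stronger Ndufb4 peak had 9 and 9 reads in LV and 12 and 10 in RV, and the second Ndufs6 peak 6, 4, 5 and 8. Their limma log2 RV over LV ran from -0.27 (Ndufa10 inside the gene, interval -1.41 to 0.86) to 0.15 (Ndufs6, interval -1.02 to 1.33). LV and RV overlapped at each.

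**Figure D4:**
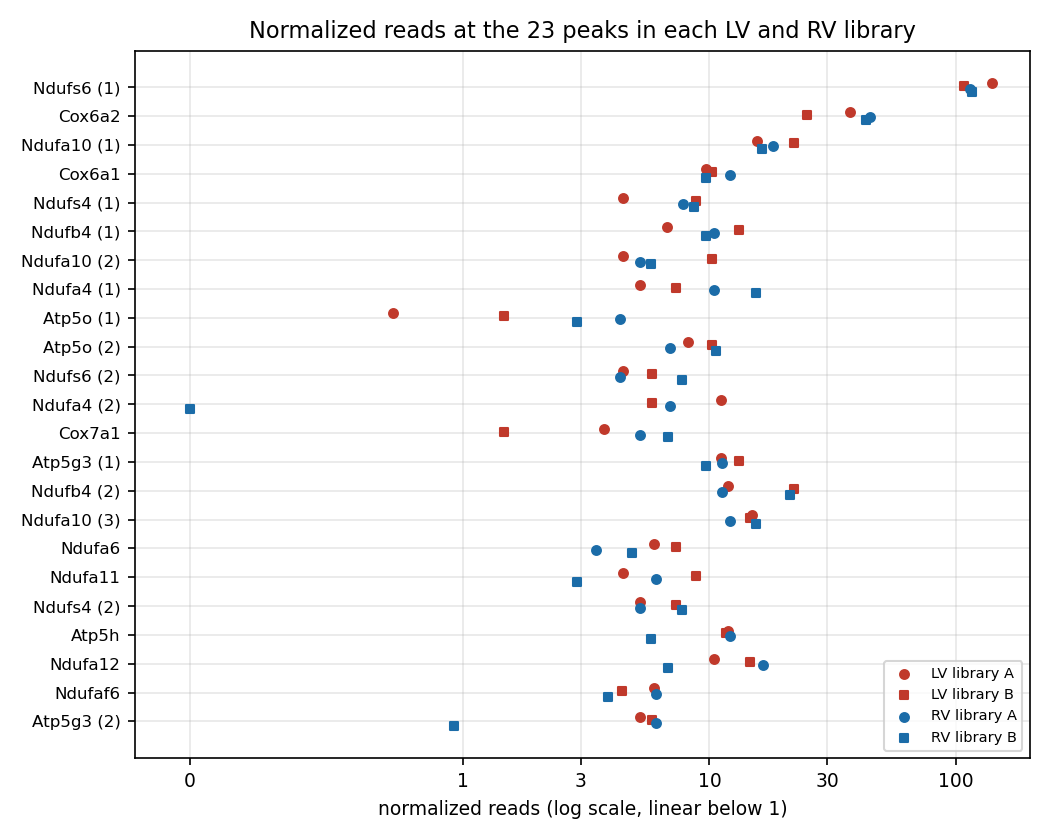
Normalized reads (log scale, linear below 1) at each of the 23 respiratory chain peaks in the LV (red) and RV (blue) libraries A (circles) and B (squares); peaks of a gene are numbered by fold enrichment. Ndufs6 (1) lies above 100 in all 4 libraries, Cox6a2 between 24.9 and 45.0, and the promoter peak of Ndufa4, numbered 2, is at 0 in RV library B.

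Over all 23 peaks no difference between the ventricles passed. By the authors' deposited table, 0 of 23 had an adjusted p under 0.05, against 0.00% of all 17587 regions, and 0 had an unadjusted p under 0.05, against 0.483%. The smallest unadjusted p there was 0.219, at the distant Ndufa4 peak. With limma on the reads per library, 0 of 23 had an adjusted p under 0.05, against 0.0284% of all regions, and 1, the Ndufa4 promoter peak, had an unadjusted p under 0.05, against 6.32%. By the authors' deposited table, 9 of the 23 were higher in RV and 14 in LV, against 8757 and 8829 of all 17587 regions. This split was not tested. The authors' median log2 RV over LV was -0.07 (range -1.18 to 1.36), against -0.0028 over all regions. Both RV libraries lay above both LV libraries at 4 of 23 peaks (Cox6a2, Cox7a1, and 1 each of Ndufa4 and Atp5o), against 17.6% of all regions, and the reverse held at 1, against 17.9%. The limma interval, which is not adjusted over regions, reached a median of 0.95 on the log2 scale to either side. Larger estimates did not pass either: -1.70 at the Ndufa4 promoter peak (limma adjusted p = 0.733) and 1.14 at an Atp5o peak (0.861). Differences of this size could thus be missed at this depth, and the smallest detectable difference was not worked out.

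**Figure D5:**
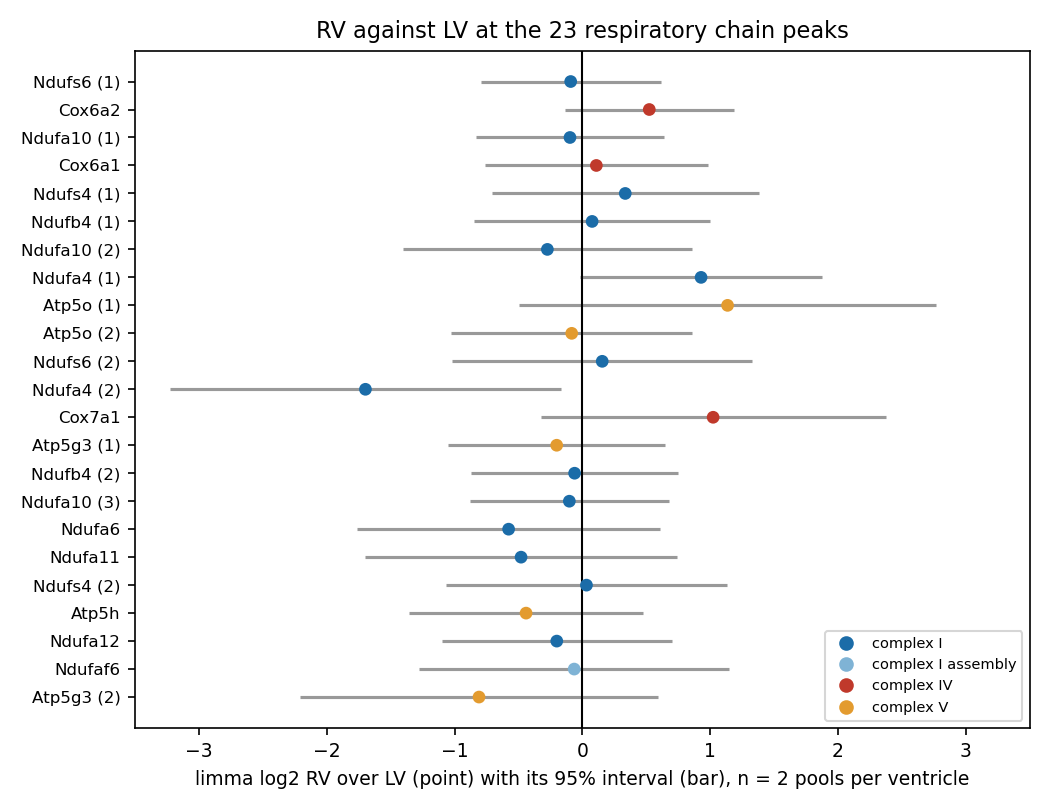
limma log2 RV over LV (points, coloured by complex) with 95% intervals (bars) at the 23 respiratory chain peaks, n = 2 pools per ventricle. The interval of 1 peak, the promoter peak of Ndufa4 numbered 2, lies off 0 (-3.22 to -0.17), and its adjusted p is 0.733.

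Genes that regulate or serve the respiratory chain were compared from 3 further lists. Of 15 regulators 9 had a WT peak (60.0%, 95% Wilson interval 35.7 to 80.2%, against 32.9% of all genes), with 55 peaks in all. Ppargc1b, a coactivator of mitochondrial genes, had 10 peaks, the strongest of fold 13.1 inside the gene, with 44 and 28 reads in LV and 45 and 35 in RV. Esrrg, an estrogen-related receptor of heart muscle, had 16 peaks (strongest 8.65; 72, 28, 43 and 47 reads). Ppargc1a, the relative of Ppargc1b, had 18. Perm1, a muscle regulator of the same pathway, had 2 (strongest 4.40), Esrrb 4 (6.52), Ppara, a receptor that drives fatty acid use, 2 (4.43), and Nrf1 1 (3.77). Esrra, Gabpa, Gabpb1, Tfam, which packs mitochondrial DNA, Tfb2m and Pprc1 had none. The regulators are long genes with much sequence around them (median body 38547 bp), and the part of length in their share was not tested.

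Of 30 assembly factors and carriers outside the symbol rule, 10 had a peak (33.3%, against the same 32.9%), with the strongest at Cox17, a copper chaperone of complex IV, of fold 10.4 inside the gene, with 84, 22, 46 and 35 reads. Cox10, which makes heme for complex IV, had 4 peaks (strongest 5.86). Cycs, cytochrome c itself, had none. Of 13 genes of the citric acid cycle, 6 had a peak (46.2%, against the same 32.9%). The Wilson interval of this share, 23.2 to 70.9%, included the share of all genes. The strongest peak was at Mdh2, malate dehydrogenase, of fold 8.34 and 4438 bp from the gene (20, 18, 18 and 17 reads). Cs, citrate synthase, had 1 peak of 4.38.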

How the data were processed

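The data were peak lists of WT and Prdm16cKO ventricles and 1 table comparing LV with RV over the WT peaks. Named without roles, per the submitters' processing notes, are DESeq2, HOMER, MACS2 2.1.1.20160309 and BWA 0.7.12-r1039, with builds mm10 and GRCm38; pooling of replicates, filters and the test behind the table are not stated there. In the authors' peak lists, the deposited values are the score, fold enrichment as a ratio, −log10 q and the summit. The deposited table holds, per the file headers, the signal of each ventricle, log2 values, and a p-value and adjusted p-value; its log2 difference is RV over LV.

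In the deposited LV and RV signal, each value was 0.5 plus the mean over 2 libraries of whole reads multiplied by that library's factor, with exactly 1 solution at 100% of regions (tolerance 1e-07). The factors were 0.744 and 1.47 normalized reads per read in LV and 0.866 and 0.965 in RV. limma 3.58.1 (R 4.3.3) with a mean-variance trend was fitted to log2(normalized reads + 1) at all 17587 regions, with no low-read filter and Benjamini-Hochberg adjustment over all regions. Its threshold was an adjusted p of 0.05, and variances of 0 were offset by limma. P-values measure the spread between pools. Decoding and limma were tested on simulated data. The rest was done in Python 3.11.15 with scipy 1.17.1, pandas 2.3.3, numpy 2.4.6 and, for plots, matplotlib 3.10.9.

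Peaks went to the nearest nuclear protein-coding gene of RefSeq GRCm38.p6 (13 mitochondrial genes left out; tied genes all counted, which concerned 178 summits, none of them of members). Gene starts and strands came from the RefSeq promoter table, and where it had no entry either gene end counted. Given with their reads were the 12 strongest member peaks, any that overlapped a knockout peak, and the 5 smallest authors' p on each side of LV against RV. Families with tissue-specific forms were named as well. Members, lists and tests were chosen with earlier results of these data known. All 58 genes of the 3 further lists were found by symbol. Input libraries were not analysed here.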

Additional observations from a re-analysis of the deposited data

How the results depend on the processing

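The count of members with a peak (15) was 10 to 15 with nearest genes within 10000 or 1000 bp, with tied summits given to the gene with the nearest end, with a -log10 q of at least 5, without peaks that overlap a knockout peak and without assembly factors. It was 52 when every gene within 50000 bp counted and 5 (5.21% of members) when peaks under a fold of 5 were dropped, which left 2954 of all 21883 genes with a peak, against 7202 before. The median fold was 3.29 to 4.27 under 3 other choices of peaks. The 9 summits at starts stayed 9 at 500 and 2000 bp (13.7% and 20.4% of all WT peaks). Knockout overlaps stayed 0 within 1000 bp, the closest knockout peak being 339394 bp away. Asking for a larger part of the peak to be covered could not change a count of 0. No member passed limma at pseudocounts of 0.1 or 5, with a mean of at least 8 reads (12 members tested), scaled by total reads in peaks or without any 1 library, and the lowest adjusted p over these was 0.352. Over all regions limma called 5, against 1 and 14 at pseudocounts of 0.1 and 5, 8 with the read filter, 90 and 22 without LV library A or B and 0 without either RV library. No direction at a member peak changed with pseudocount, filter or scaling, but without 1 library at a time 15 of 23 did, with log2 RV over LV of Ndufs6 (73298462) -0.27 to 0.091, Ndufs6 (73304764) -0.20 to 0.51, Ndufa10 (92337400) -0.33 to 0.14, Ndufa10 (92448242) -0.80 to 0.25, Ndufa10 (92437733) -0.26 to 0.060, Cox6a1 -0.042 to 0.26, Ndufs4 (114344140) -0.086 to 0.76, Ndufs4 (114388014) -0.21 to 0.28, Ndufb4 (37691169) -0.37 to 0.52, Ndufb4 (37685258) -0.49 to 0.37, Atp5o (91978757) -0.36 to 0.19, Atp5h -0.92 to 0.034, Ndufa12 -0.79 to 0.38, Ndufaf6 -0.33 to 0.21, Atp5g3 (73911372) -1.73 to 0.11 (peaks of a gene by start). The other 8 kept their sign but not their size, with Ndufa4 -3.19 to -0.20 (11907290) and 0.66 to 1.19 (11306613), Cox6a2 0.24 to 0.80, Cox7a1 0.55 to 1.49, Atp5o (91981381) 0.89 to 1.39, Ndufa6 -0.77 to -0.39, Ndufa11 -0.91 to -0.051 and Atp5g3 (74201619) -0.31 to -0.091. No paired analysis was possible because the LV and RV columns carry no replicate numbers. Depth of 6 to 10 reads at the median peak limits the values at peaks of few reads. The strong Ndufs6 peak, with 188 and 74 reads in LV and 132 and 121 in RV, still changed sign without LV library A.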
